A study of Mus musculus with 2 samples.

Results

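Small nucleolar RNAs (snoRNAs) and small Cajal body RNAs (scaRNAs) detected in mouse heart are described here, as measured by total RNA-seq with ribosomal RNA reduced. A gene was taken where the annotation gives it a transcript of type snoRNA or scaRNA and none that codes for protein, and where its level was at least 1 TPM (a level corrected for transcript length and library size) in both libraries. Of 1558 annotated snoRNA and scaRNA genes, 75 met the rule, or 4.81%, among 55536 genes in the deposited tables. The genes were thus chosen by their measured TPM, so their levels are given as a description and without a test. Both libraries come from untreated heart tissue of male B6CASTF1/J mice, an F1 hybrid strain supplied by The Jackson Laboratory, at an age of 2 months, with 300 ng of RNA in each. The labels number the animals separately as replicates 1 and 2 but give them the same donor entry, so the spread between them may be partly technical. There is no other group to compare with, so no test was made, and differences between the mice are given with counting intervals only.

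SnoRNAs guide the chemical modification of ribosomal RNA by base pairing with it. The box C/D kind directs ribose methylation, the box H/ACA kind directs the conversion of uridine to pseudouridine, and scaRNAs do the same work on the RNAs of the spliceosome inside Cajal bodies. U3 is a box C/D RNA that is needed for the cleavage of the ribosomal RNA precursor and guides no modification. In mammals most of these RNAs lie in introns of other genes, called host genes, and are cut out after splicing.

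The heart muscle genes Myh6, Tnnt2, Actc1, Ttn, Myl2 and Tnni3 had mean levels of 1210 to 8071 TPM, and the neuronal genes Rbfox3 and Snap25 had means of 0.075 and 0.025 TPM. All genes together took 38963569 expected counts in replicate 1 and 44321172 in replicate 2. The red cell genes set the mice apart, with Hbb-bs, a globin, at 7512 TPM in replicate 1 and 2215 TPM in replicate 2, and all 4 red cell markers were at least 2-fold higher in replicate 1. Of the 3 adipocyte markers, Plin1 alone was at least 2-fold apart, and it was higher in replicate 2. The part of these cell types in the snoRNA values was not tested.

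The sequences that the results turn on are printed here as DNA letters of the RNA strand from the GENCODE M21 transcripts on mm10, in lower case. In the U3 and Snord genes, capitals mark the C box TGATGA where it falls in the first 20 bases and the D box CTGA where it falls in the last 20 bases. In the other genes, capitals mark ACA followed by 3 bases at the end, which is the mark of box H/ACA RNAs. The U3 genes are shown because their counts were divided among near-identical entries. Rnu3b1 lies at chr11:87443237-87443452 (+) and Rnu3a at chr10:40258467-40258679 (+).
Rnu3b1: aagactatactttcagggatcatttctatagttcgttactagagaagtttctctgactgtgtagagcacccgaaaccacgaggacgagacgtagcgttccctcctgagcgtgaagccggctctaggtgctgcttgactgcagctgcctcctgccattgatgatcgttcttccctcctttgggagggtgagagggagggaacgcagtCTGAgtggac
Rnu3a: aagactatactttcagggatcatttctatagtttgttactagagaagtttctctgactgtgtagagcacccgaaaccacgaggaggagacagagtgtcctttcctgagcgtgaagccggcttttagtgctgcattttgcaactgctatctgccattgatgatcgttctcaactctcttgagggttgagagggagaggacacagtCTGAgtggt
Snord15b and Snord15a are shown because they lie in the same host gene at unlike levels, at chr7:99479563-99479707 (-) and chr7:99482785-99482932 (-).
Snord15b: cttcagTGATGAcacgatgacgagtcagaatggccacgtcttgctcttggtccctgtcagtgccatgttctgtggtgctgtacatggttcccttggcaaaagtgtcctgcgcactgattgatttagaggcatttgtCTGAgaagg
Snord15a: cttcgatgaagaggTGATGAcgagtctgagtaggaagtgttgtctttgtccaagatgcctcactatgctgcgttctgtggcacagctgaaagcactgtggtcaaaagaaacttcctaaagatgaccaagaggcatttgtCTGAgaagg
Snora73b at chr4:132352322-132352526 (-), Snora73a at chr4:132352775-132352979 (-) and Gm26448 at chr9:120129351-120129553 (+) are shown because they share most of their sequence while Gm26448 carries no family symbol.
Snora73b: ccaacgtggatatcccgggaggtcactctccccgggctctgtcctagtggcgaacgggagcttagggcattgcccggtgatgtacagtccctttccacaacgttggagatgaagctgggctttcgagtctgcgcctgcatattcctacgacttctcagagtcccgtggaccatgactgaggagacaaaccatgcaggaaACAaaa
Snora73a: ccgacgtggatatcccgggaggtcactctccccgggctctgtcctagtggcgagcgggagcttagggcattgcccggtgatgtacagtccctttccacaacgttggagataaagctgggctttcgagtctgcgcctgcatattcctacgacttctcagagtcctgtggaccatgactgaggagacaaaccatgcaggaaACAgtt
Gm26448: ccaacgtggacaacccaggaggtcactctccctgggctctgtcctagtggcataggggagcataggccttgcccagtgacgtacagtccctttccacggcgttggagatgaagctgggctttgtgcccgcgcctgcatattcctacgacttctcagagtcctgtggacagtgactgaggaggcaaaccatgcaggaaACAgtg
Gm22988 at chr11:69669635-69669778 (-), Gm25291 at chr11:51737779-51737922 (-), Gm24727 at chr8:33691801-33691944 (+) and Gm25117 at chr10:111481493-111481636 (+) are closely related RNAs in different host genes, with 88.9% to 97.2% identity between pairs.
Gm22988: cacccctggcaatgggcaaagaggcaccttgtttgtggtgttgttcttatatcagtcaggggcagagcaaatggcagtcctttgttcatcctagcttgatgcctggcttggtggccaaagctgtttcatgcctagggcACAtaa
Gm25291: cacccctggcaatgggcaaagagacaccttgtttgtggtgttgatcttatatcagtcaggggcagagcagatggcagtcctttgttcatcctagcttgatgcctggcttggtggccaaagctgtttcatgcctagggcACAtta
Gm24727: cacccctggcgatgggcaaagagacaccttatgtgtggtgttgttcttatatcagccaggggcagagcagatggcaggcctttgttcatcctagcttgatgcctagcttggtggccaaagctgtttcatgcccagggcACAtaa
Gm25117: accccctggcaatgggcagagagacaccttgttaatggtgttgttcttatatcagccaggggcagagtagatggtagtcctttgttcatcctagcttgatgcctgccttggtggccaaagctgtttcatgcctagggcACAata
Gm26447 at chr16:23111301-23111429 (+) had the highest TPM of all 75 genes and neither mark was found in it.
Gm26447: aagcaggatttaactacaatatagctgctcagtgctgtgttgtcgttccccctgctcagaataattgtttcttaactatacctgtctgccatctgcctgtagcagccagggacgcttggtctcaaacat

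The 75 genes are short, with lengths of 121 to 414 bases and a median of 140. In the gene table the effective length, over which reads are counted, was the length minus 99 for entries of 100 bases or more and 0 below that. Their effective lengths therefore ran from 22 to 315 bases, with a median of 41. At 121 bases 1 count was worth 1.47 TPM in replicate 1 and 1.29 TPM in replicate 2, while at 414 bases it was worth 0.102 TPM and 0.0902 TPM. A level of 1 TPM thus stood for less than 1 count in the shortest gene of the set and for 9.76 and 11.1 counts in the longest. For this reason each TPM is given beside its expected counts (the reads that the quantifier assigned to the gene, which need not be whole).

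Together the 75 genes summed to 3466 TPM in replicate 1 and 3702 TPM in replicate 2, a mean of 3584 ± 167 TPM (SD, n = 2) or 0.358% of all TPM. Without any correction for length, they took 11438 expected counts in replicate 1 and 14300 in replicate 2. That was 0.0294% of all gene counts in replicate 1 (95% Wilson interval 0.0288 to 0.0299%) and 0.0323% in replicate 2 (0.0317 to 0.0328%). These intervals, and all others given here, cover counting error only. The level was concentrated in few genes. The 10 genes of highest TPM held 66.5 ± 1.64% of the set's TPM (SD, n = 2), and 9 of them were also among the 10 of highest count. At the other end, 26 genes had a mean of fewer than 10 counts, and they held 3.22% of the summed TPM.

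Most annotated snoRNA and scaRNA genes could not be measured in these tables or had no reads. Of the 1558 genes, 462 were under 100 bases, and all of these had 0 counts in both mice, since the effective length of such an entry is 0. That took out 87 of the 98 genes with a Snord symbol, because box C/D RNAs are mostly shorter than box H/ACA RNAs. All 210 snoRNA entries between the imprinted genes Snrpn and Ube3a on chromosome 7, among them Gm22046, and all 23 between Dlk1 and Dio3 on chromosome 12, among them AF357341, were under 100 bases. Their levels are therefore not known from these tables, although genes of both regions were read. Snhg14, the noncoding host that spans most of the interval from Snrpn to Ube3a, was at 1.76 ± 0.156 TPM, and Snrpn, at its edge, at 39.2 ± 1.41 TPM (SD, n = 2 each). Rian, a noncoding host of the Dlk1 to Dio3 region, was at 3.40 ± 1.23 TPM. Of the 1096 genes of 100 bases or more, 75 met the rule, 55 had an expected count above 0 but did not, and 966 had 0 counts in both mice. Of the 55, the longer Rnu3a entry had 0.01 counts in replicate 2 and was listed at 0 TPM. A count of 0 allows up to 3 counts in a library, which at 130 bases is 3.12 TPM in replicate 1 and 2.75 TPM in replicate 2. An entry of that length listed at 0 may thus still be above the threshold.

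The values on each side of the threshold rest on 1 to 7 counts. Just inside it, Gm23297 was at 1.15 TPM with 1 count in replicate 1 and 3.05 TPM with 3 counts in replicate 2, and Gm22786 had the same counts at 1.40 and 3.71 TPM. Gm26205 was at 1.25 TPM with 1.35 counts in replicate 1 and 1.87 TPM with 2.30 counts in replicate 2. Gm26165 was at 5.79 TPM with 7 counts in replicate 1 and 1.46 TPM with 2 counts in replicate 2. Just outside it, Gm23639 and Gm25076 had 0.98 TPM and 1 count each in replicate 1, against 2.58 and 1.72 TPM in replicate 2. Gm25107 had 3.23 TPM in replicate 1 and 0.95 TPM in replicate 2, and Gm24620 and Gm24888 both had 0.92 TPM and 1 count in replicate 2.

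Of 48 scaRNA genes of 100 bases or more, 12 met the rule, or 25.0%. These 12 held 57.6 ± 0.799% of the set's counts but 27.6 ± 0.272% of its TPM (SD, n = 2), as their median length was 229 bases. Scarna2, which in human guides modification of the U2 RNA of the spliceosome and lies outside any other gene of its strand, had the most counts of all 75 genes. It took 2920 counts in replicate 1 and 3751 in replicate 2, or 299 and 339 TPM. Scarna10, known in human as U85 and carrying features of both box kinds, had 2073 counts in replicate 1 and 2617 in replicate 2, or 296 and 329 TPM. Its host Ncapd2, a subunit of condensin, was at 6.76 TPM in both mice, so Scarna10 stood 46.2 ± 3.46-fold above it. Gm22009 in an intron of Kpna4, a nuclear import receptor, followed at 106 TPM in replicate 1 and 94.2 TPM in replicate 2. Its counts were 803 in replicate 1 and 809 in replicate 2. The other 9 scaRNA genes had means from 4.30 to 50.7 TPM, the lowest being Scarna3a with 3 counts in replicate 1 and 9 in replicate 2. By sequence, 4 of the 12 carried both C and D boxes, Scarna10 and Gm22009 among them, and 5 ended in ACA and 3 bases, Scarna13 among them.

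**Figure D1:**
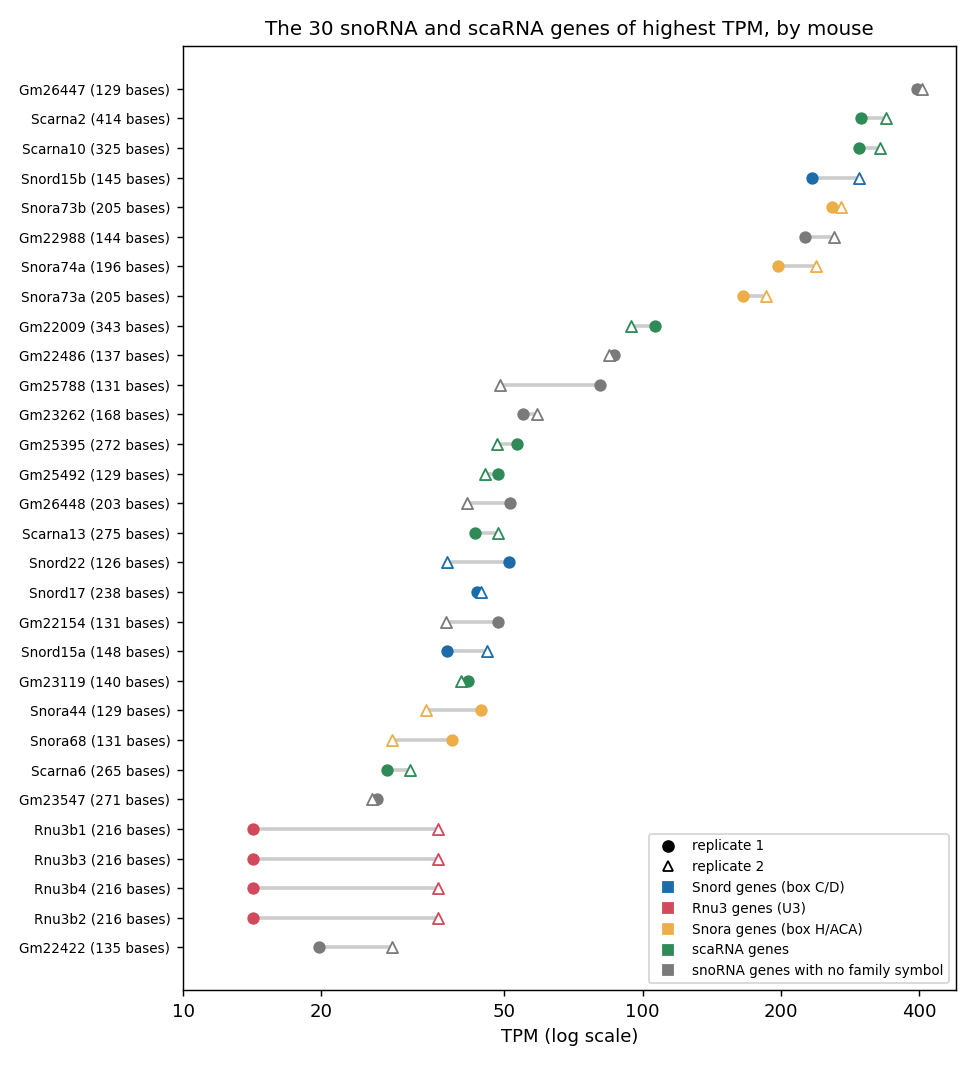
TPM on a log scale of the 30 genes of highest mean TPM, with filled circles for replicate 1 and open triangles for replicate 2, coloured by class. Gm26447 is highest at 395 TPM in replicate 1 and 406 TPM in replicate 2, and the 4 Rnu3b genes show the widest gap between the mice, at 14.2 and 35.9 TPM.

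Of the 42 Snora genes, all of 100 bases or more, 18 met the rule. Of these, 2 are overlapping entries of Snora43 at 1 locus, 127 and 139 bases long. They had 6.67 and 6.33 counts in replicate 1 and 4.81 and 5.19 in replicate 2. Snora73b and Snora73a, the U17 RNAs that take part in the processing of small-subunit ribosomal RNA, lie in the noncoding gene Snhg3, Snora73b in an intron and Snora73a partly in an annotated exon. Snora73b had 258 TPM and 848 counts in replicate 1, and 270 TPM and 1008 counts in replicate 2. Snora73a had 165 TPM and 543 counts in replicate 1, and 186 TPM and 693 counts in replicate 2. The printed sequences of this pair share 198 of 205 bases, and Snora73b was the higher in both mice, 1.50-fold over the summed counts per effective length (95% exact interval 1.40 to 1.61). Gm26448, 203 bases long and in an intron of the ribosomal protein gene Rpsa, shares 87.8% of aligned positions with Snora73b. It was at 51.5 TPM with 166 counts in replicate 1 and 41.5 TPM with 152 counts in replicate 2. Snora74a stood between Snora73b and Snora73a, at 197 TPM in replicate 1 and 239 TPM in replicate 2, and lies whole in an annotated exon of a noncoding gene. The median Snora gene of the set was far below these, at 7.09 TPM and 7.66 counts.

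Only 11 Snord genes were long enough to be measured, and 4 met the rule. Snord15b had 233 TPM and 333 counts in replicate 1, and 296 TPM and 479 counts in replicate 2. Snord22 had 51.1 TPM in replicate 1 and 37.6 TPM in replicate 2, on 42.8 and 35.7 counts. Snord17, 238 bases long, had 43.6 TPM in replicate 1 and 44.6 TPM in replicate 2, on 188 and 218 counts. Snord15a was the lowest of the 4, at 37.5 TPM and 57 counts in replicate 1 and 45.8 TPM and 79 counts in replicate 2. Snord118, the U8 RNA of large-subunit ribosomal RNA processing, fell just short of the threshold with 1 count in each mouse, at 0.90 TPM in replicate 1 and 0.79 TPM in replicate 2.

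The class with no family symbol was the largest in number, with 36 genes. These were 3.65% of its 985 annotated genes of 100 bases or more, the lowest such share of any class. The class held 35.8 ± 1.61% of the set's TPM but 14.8 ± 0.935% of its counts (SD, n = 2). It includes the gene of highest TPM, Gm26447, with 395 TPM on 367 counts in replicate 1 and 406 TPM on 428 counts in replicate 2. Gm22988 had 226 TPM on 315 counts in replicate 1 and 261 TPM on 412 counts in replicate 2. Gm22486, which RefSeq on GRCm38 lists at the same coordinates as Snord94, had 86.6 TPM on 102 counts in replicate 1 and 84.5 TPM on 113 counts in replicate 2. The remaining 33 ranged from 1.56 to 64.8 TPM as means. Of the 36, 25 ended in ACA and 3 bases and 3 carried both C and D boxes.

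**Figure D2:**
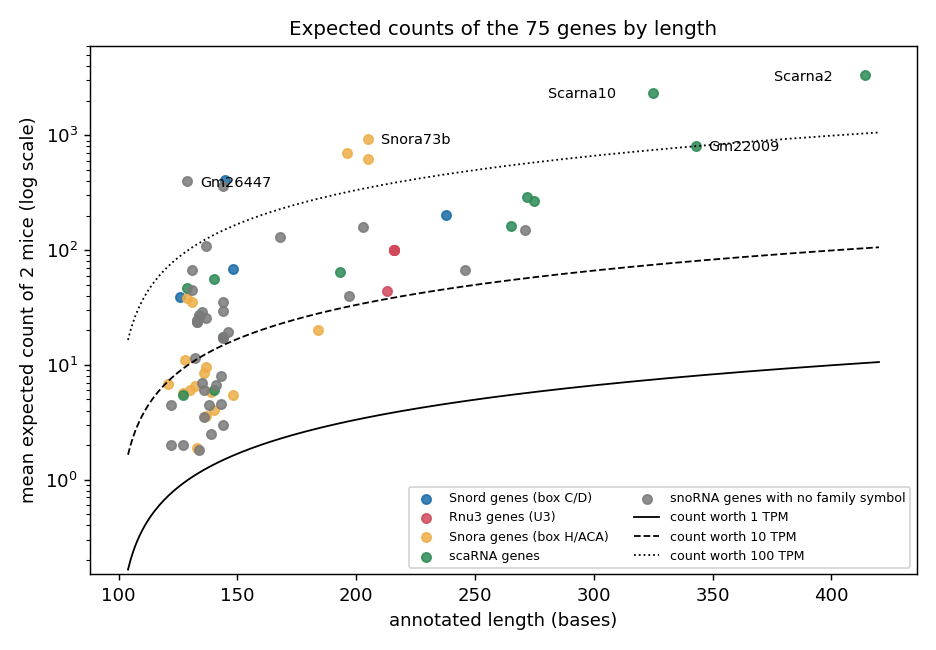
Mean expected count of the 2 mice on a log scale against annotated length in bases for the 75 genes, coloured by class, with lines at the counts worth 1, 10 and 100 TPM. Scarna2 and Scarna10 are highest in counts, while Gm26447 at 129 bases reaches the highest TPM on 398 counts.

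Expected counts followed length more closely than TPM did across the 75 genes, with a Spearman rank correlation of 0.596 against 0.378. These are descriptions across genes that share the same libraries, and each gene's TPM is computed from its own count and length. The length correction moved single genes in the order: Gm26447 was rank 1 by TPM and rank 8 by count, and Gm24119, at 246 bases, was rank 40 by TPM and rank 24 by count.

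The end motifs and the place in a host gene were not used to choose the genes. An ACA followed by 3 bases at the end of the RNA was found in 44 of the 75 genes, or 58.7%, against 238 of the 1021 other snoRNA and scaRNA genes of 100 bases or more, or 23.3%. A TGATGA in the first 20 bases together with a CTGA in the last 20 was found in 10 of the 75, or 13.3%, against 7 of 1021, or 0.686%. Only the RNA strand was searched, the motifs do not overlap in these positions, and a missing match says only that these letters were not there. By these marks, 21 of the 75 carried neither kind, among them the U3 genes, whose TGATGA lies inside the RNA and not near its start.

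A host gene was taken as the shortest gene on the same strand that contains the snoRNA and is not itself a short RNA entry. It was found for 68 of the 75 genes, or 90.7%, against 247 of the 1021 others, or 24.2%. Of the 68, 43 lay in an intron, 16 lay whole in an exon annotated for some transcript of the host, and 9 lay partly in one. As shares of the 75, these were 57.3%, 21.3% and 12.0%, against 20.2%, 3.33% and 0.686% of the 1021 others. Where a host existed, it was at 1 TPM or more in both mice for 62 of the 68 genes, or 91.2%, against 63.6% of the 247. The median host level was 24.9 TPM for the detected genes and 4.42 TPM for the others. The median TPM was 19.9 for genes in introns and 20.5 for those whole in an annotated exon. The part of host reads in these levels, and so in meeting the rule of 1 TPM, was not tested.

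Among the hosts were 12 of 107 translation genes of the kind whose messenger RNAs begin with a pyrimidine tract (the ribosomal protein genes and others such as Eif4a1), and they carried 16 of the 75 genes. All 12 of these hosts were protein-coding genes of ribosomal proteins, translation factors or Tpt1, which the make-up of the list largely fixed. How many of the 1021 other genes lie in hosts of this list is not given here. By host type, 56 of the 68 genes with a host lay in a protein-coding one, against 197 of the 247 others. A further list held snoRNA host genes, noncoding ones and the protein-coding Snrpn. Of its 19 genes found in the tables, 6 carried 7 of the detected genes. Snhg3, at 5.64 ± 0.431 TPM (SD, n = 2), carried both Snora73 genes. That list leaves out other noncoding hosts, such as Snhg10 of Scarna13, and the number of the 1021 others in its hosts is not given here. Gas5, at 21.7 ± 1.16 TPM, was second in that list to Snrpn, and no member of the set lies in it. Any entry under 100 bases in Gas5 would read 0 by its effective length, so this absence does not show that its snoRNAs are missing.

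Across the 68 genes, the Spearman rank correlation between a gene's TPM and its host's was -0.087. It is a description across genes that share 2 libraries, and 9 of the hosts hold more than 1 of the genes. In both mice 32 genes stood above their host and 34 below it. The largest excess was in the 4 Rnu3b genes, which lie in introns of Tex14, a gene of germ cells. Tex14 was at 0.07 TPM in replicate 1 and 0.09 TPM in replicate 2. It is their host by position only, and whether they are made from it was not tested. Scarna13 followed at 137 ± 104.8-fold its host Snhg10, which was at 0.69 TPM in replicate 1 and 0.23 TPM in replicate 2. Snora74a was 80.7 ± 22.9-fold above the noncoding gene that contains it. The smallest ratios were in hosts of very high level: Snora31 was at 5.94 TPM as a mean inside Tpt1, a translationally controlled gene at 1230 TPM, a fold of 0.0049 ± 0.0018. Gm26205 in Rpl6 and Snora7a in Rpl32, both ribosomal protein genes, were at 0.0074 ± 0.0016 and 0.0124 ± 0.0013 of their hosts.

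**Figure D3:**
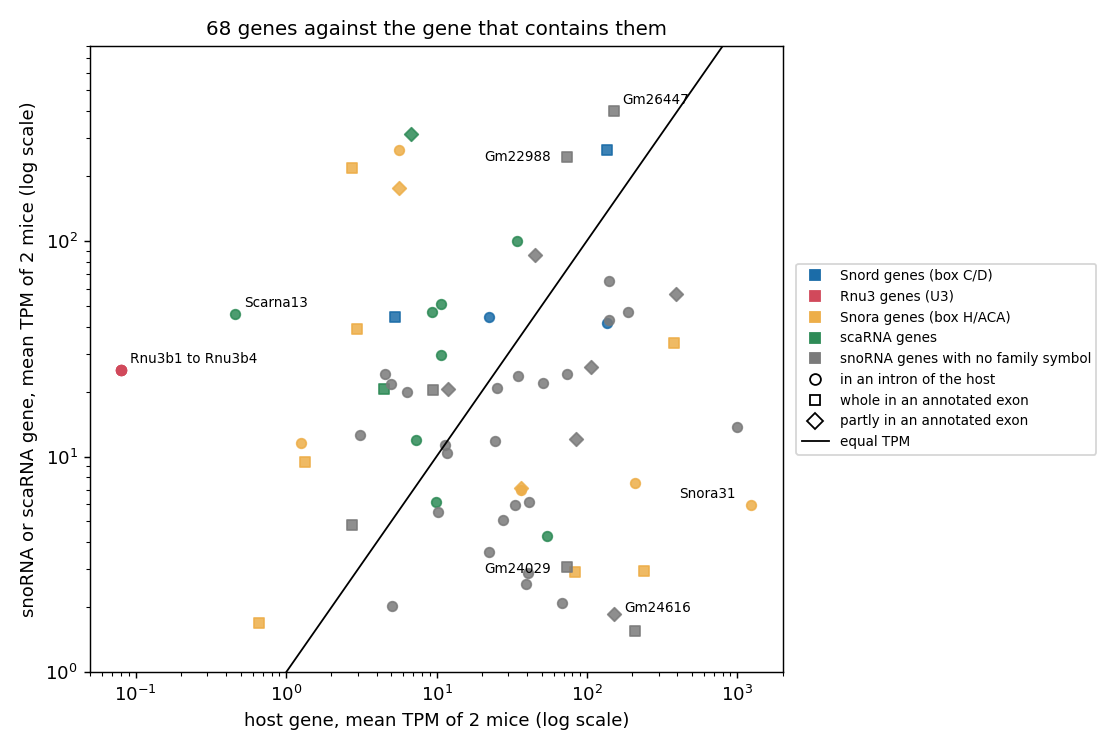
Mean TPM of each of 68 snoRNA and scaRNA genes against the mean TPM of the gene that contains it, both on log scales, with symbols for the place in the host and a line of equal TPM. Points lie on both sides of the line, and Gm26447 and Gm24616, which share the host Eif4a2, lie at opposite ends of the vertical axis.

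Genes in the same host could differ widely, which compares them at the same host level. In Eif4a2, an RNA helicase of translation initiation at 154 TPM in replicate 1 and 148 TPM in replicate 2, Gm26447 was at 395 TPM in replicate 1 and 406 TPM in replicate 2. Gm24616, in the same host, had only 2 and 3 counts, or 1.61 TPM in replicate 1 and 2.13 TPM in replicate 2. The ratio over the summed counts per effective length was 212 (95% exact interval 90.5 to 655). The order was the same in both mice. Gm26447 lies whole in an annotated exon of the host and Gm24616 partly in one. The part of host reads in this difference was not tested.

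Eif4a1, the close relative of Eif4a2, stood at 71.4 TPM in replicate 1 and 76.0 TPM in replicate 2 and holds 3 of the genes. Gm22988 was at 226 and 261 TPM in replicates 1 and 2, Gm25835 at 27.2 and 20.9 TPM, and Gm24029 at 2.38 and 3.74 TPM. Gm22988 was 10.3-fold above Gm25835 (95% exact interval 8.03 to 13.3) and 79.1-fold above Gm24029 (41.4 to 174). Gm22988 and Gm24029 lie whole in annotated exons and Gm25835 lies in an intron. The part of host reads in these levels was not tested.

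In Rps3, a protein of the small ribosomal subunit at 134 TPM in replicate 1 and 138 TPM in replicate 2, Snord15b was 6.35-fold above Snord15a (95% exact interval 5.29 to 7.67). Snord15b lies whole in an annotated exon of the host and Snord15a in an intron; the part of host reads in this difference was not tested. The pair as printed share 66.0% of aligned positions. In Snx5, a sorting nexin at 23.8 TPM in replicate 1 and 21.2 TPM in replicate 2, Snord17 was 12.7-fold above Gm26165 (6.602 to 27.9), on 406 against 9 counts. That ratio differed between the mice, at 7.54 by TPM in replicate 1 and 30.5 in replicate 2. Smaller ratios were found in Atg16l1, an autophagy gene, where Gm25395 was 1.71-fold above Scarna6 (1.49 to 1.96), and in Pabpc4, a poly(A)-binding protein gene, where Gm25788 was 1.50-fold above Gm22154 (1.14 to 1.98). In the noncoding host of Snora74a, Snora74a was 46.9-fold above the entry Mir1949 (27.3 to 88.3). Of the 9 hosts with more than 1 of the genes, the Rnu3b genes in Tex14 were the only ones listed at equal levels.

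The family of Gm22988 shows the converse case, related RNAs in different hosts. The printed sequences of Gm22988 and Gm25291 share 140 of 144 bases, and both end in ACA and 3 bases. Gm22988 was at 226 TPM in replicate 1 and 261 TPM in replicate 2, while Gm25291, in an intron of Sec24a, a gene of vesicle coats, was at 20.8 and 18.9 TPM in replicates 1 and 2. Gm24727, in an intron of the glutathione reductase gene Gsr, was at 10.04 TPM in replicate 1 and 12.6 TPM in replicate 2. Gm25117, in an intron of the histone chaperone gene Nap1l1, was at 12.2 and 11.4 TPM in replicates 1 and 2. Gm22988 held 84.9 ± 1.30% of the summed TPM of the 4 (SD, n = 2) and was 12.3-fold above Gm25291 (95% exact interval 9.46 to 16.4). Gm24727 and Gm25117 did not differ beyond counting error, at a ratio of 0.971 (0.588 to 1.60). Gm22988 is also the only one of the 4 that lies in an annotated exon of its host. Among all 75 genes, 40 had at least 1 other annotated snoRNA or scaRNA entry of 90% identity or more over 90% of their length, so reads may be split among copies there; the sequences of the 75 numbered 72 different ones.

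For U3, the division of reads among overlapping entries changed the comparison between the mice; entries of other genes were not added up. The annotation holds 10 entries with an Rnu3 symbol. At each of 5 loci a shorter and a longer entry overlap and differ by 1 base at the end. Each of the Rnu3b members had 15 other entries of 90% identity or more over 90% of its length, more than carry the Rnu3 symbol. Entries without that symbol are not in the sums below. The 4 Rnu3b members, all of 216 bases, have the same sequence. Each was at 14.2 TPM with 51.5 counts in replicate 1 and 35.9 TPM with 148 counts in replicate 2. The overlapping entries of 215 bases had 92.2 counts each in replicate 1 and 0.07 in replicate 2, or 25.6 and 0.02 TPM, and so did not meet the rule. The sum over the 4 longer entries was 206 counts in replicate 1 and 592 in replicate 2, and over the 4 shorter ones 369 and 0.28. Over all 8 entries it was 575 counts in replicate 1 and 592 in replicate 2, or 159 and 144 TPM. The authors' posterior SD of the count ran from 44.0 to 80.0 over the 4 longer entries in replicate 1, against the 51.5 counts of each. Rnu3a, the other gene with an Rnu3 symbol, had 37 counts in replicate 1 and 51.0 in replicate 2, at 10.5 and 12.7 TPM. Its shorter entry of 213 bases held nearly all of these counts.

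**Figure D4:**
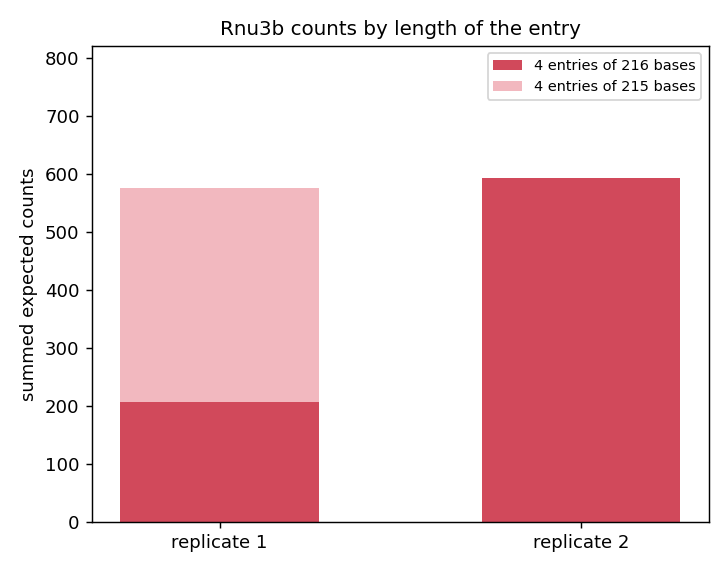
Summed expected counts of the Rnu3b entries in replicate 1 and replicate 2, with the 4 entries of 216 bases in dark and the 4 overlapping entries of 215 bases in light. The bars reach 575 and 592 counts, while the dark parts reach 206 and 592.

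Between the mice, ratios were computed for the 26 genes with a mean of at least 50 counts, on counts scaled with TMM, a method that sets the bulk of genes equal. Of these 26 genes, 4 were 2-fold or more apart, or 15.4%, against a background of 0.570% of the 12453 genes with as many counts. None was 2-fold higher in replicate 1, against a background of 0.369%. All 4 were higher in replicate 2, against a background of 0.201%, and all 4 were the Rnu3b genes, at a log2 ratio of replicate 1 over replicate 2 of -1.27 each (95% exact interval -1.76 to -0.81). These are 4 copies of a single sequence with the same estimated counts, so they count as a single difference. With the shorter and longer entries of each locus added up, a step chosen after the data were seen, none of the 26 was 2-fold apart. The sum over all Rnu3b entries gave a log2 ratio of 0.19 (0.023 to 0.36), so the direction turned.

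The other 22 genes ran from -0.35 for Gm24119 in Slc25a3, the mitochondrial phosphate carrier gene, to 0.77 for Gm25788 in Pabpc4, with a median of -0.036. Gm25788 had 80 counts in replicate 1 and 55 in replicate 2 (95% exact interval of the log2 ratio 0.26 to 1.30). The most deeply counted genes were close between the mice: Scarna2 was at -0.13 (-0.20 to -0.058) and Snora73b at -0.016 (-0.15 to 0.12). Over all 26 genes the median was -0.11, against -0.0051 over the 12453 genes, and it was 0.016 with each Rnu3 locus added up. Scaling on the spike-in RNAs moved every ratio by -0.17.

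**Figure D5:**
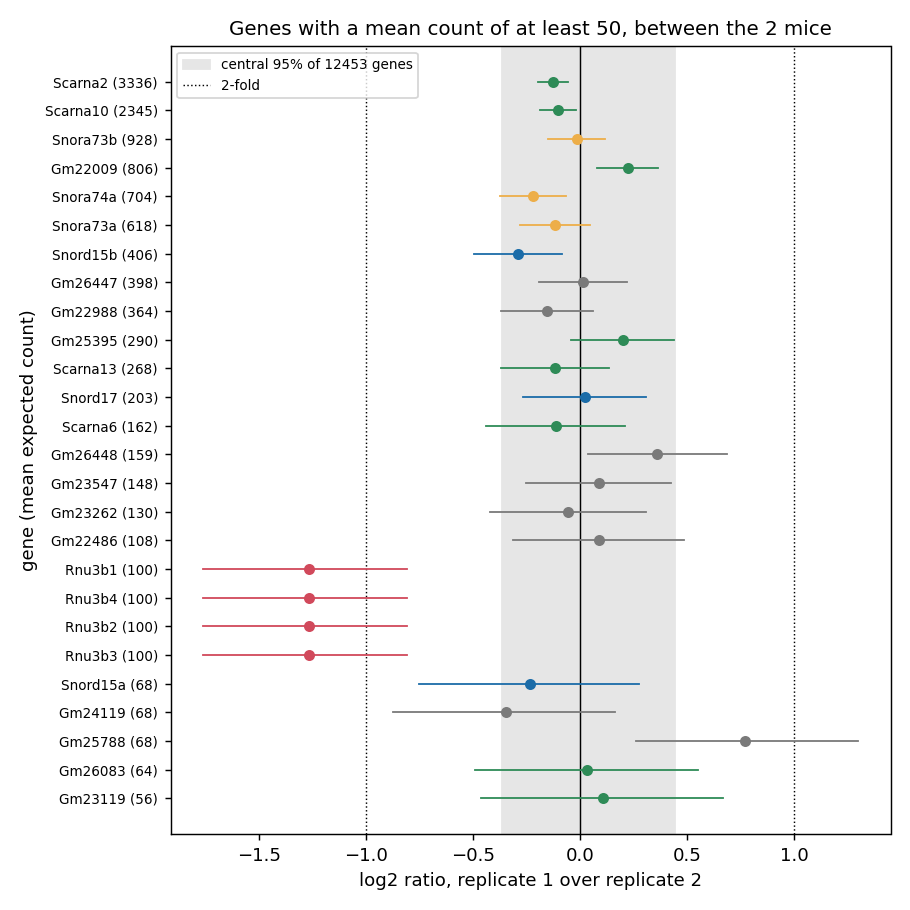
Log2 ratio of replicate 1 over replicate 2 for the 26 genes with a mean of at least 50 expected counts, in order of count, with 95% exact counting intervals. The grey band spans -0.36 to 0.44, which holds 95% of 12453 genes, and only the 4 Rnu3b genes lie beyond the 2-fold lines.

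A separate transcript table, quantified directly from the reads with a second quantifier, gave nearly all of these genes no counts. Of the 75, 72 had an estimated count of 0 in both mice, and 2 stood at 1 TPM or more in both. Scarna2 was at 309 TPM in replicate 1 and 323 TPM in replicate 2 there, against 299 and 339 TPM in the gene table, although its counts were 1134 and 1344, against 2920 and 3751. Gm22009 was at 102 and 68.1 TPM there, against 106 and 94.2 TPM in the gene table. Scarna10 had 2 counts in each mouse there and 0.881 and 0.779 TPM, against 296 and 329 TPM in the gene table. In that table the effective length was the length minus 326 bases in replicate 1 and minus 325 in replicate 2 for long transcripts, and only Scarna2 and Gm22009 are longer than 326 bases. Over all transcripts of 100 to 325 bases, 96 of 9695 had a count in replicate 1 there, against 1193 of 9707 in the transcript table made from alignments. The levels of the other genes, Scarna10 included, thus rest on the alignment-based tables alone.

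The protein partners of these RNAs were read in both mice. Fibrillarin (Fbl), the methyltransferase of box C/D particles, was at 12.0 ± 1.80 TPM, Nop56 at 10.9 ± 0.134, Nop58 at 11.2 ± 2.04 and Snu13, which binds the C and D boxes, at 20.3 ± 0.120 TPM (SD, n = 2 each). Of the box H/ACA proteins, the pseudouridine synthase dyskerin (Dkc1) was at 8.09 ± 0.0141 TPM, Gar1 at 6.04 ± 0.467, Nhp2 at 8.72 ± 1.10 and Nop10 at 24.4 ± 1.02 TPM. All 11 assembly factors were at 1 TPM or more in both mice, from Nufip1 at 1.24 ± 0.120 TPM to Pih1d1 at 14.4 ± 0.488 TPM. So were all 8 genes of Cajal body structure and scaRNA localisation, from Gemin4 at 1.56 ± 0.233 TPM to Ice1 at 10.2 ± 0.460 TPM. Of these, Wrap53, which brings scaRNAs to Cajal bodies, was at 1.99 ± 0.120 TPM and coilin (Coil), the marker protein of these bodies, at 1.75 ± 0.120 TPM. All 9 genes of trimming and release from introns passed too, from the debranching enzyme Dbr1 at 2.23 ± 0.0071 TPM to the exosome nuclease Exosc10 at 14.8 ± 0.0424 TPM. The 12 proteins that work with U3 ran from Utp15 at 2.45 ± 0.184 TPM to Imp3 at 23.8 ± 0.643 TPM. No gene of these 6 lists was 2-fold apart between the mice, where the background was 0.570%.

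Other short noncoding RNAs can be set beside these levels. The 7SL RNA entries Rn7s1 and Rn7s2, at 300 bases, were the highest at 65350 ± 2526 TPM each, and Rn7sk, at 331 bases, was at 15091 ± 2083 TPM (SD, n = 2 each). Rmrp, the RNA of RNase MRP at 281 bases, was at 798 ± 48.2 TPM, and Rpph1, the RNA of RNase P at 319 bases, at 2550 ± 95.5 TPM (SD, n = 2 each). All 5 stood above each of the 75 genes. Terc, the telomerase RNA, which carries an H/ACA end but is not annotated as a snoRNA, was at 0.70 TPM with 7 counts in replicate 1 and 1.05 TPM with 12 counts in replicate 2, below every member of the set in mean TPM. The spliceosomal RNA Rnu12 was at 9.31 TPM in replicate 1 and 9.29 TPM in replicate 2, and Rny3, Rnu5g and Rnu6 were listed at 0 in both mice. These last 3 are 102, 116 and 107 bases long, shorter than any of the 75 genes, so their 0 cannot be compared with the levels above.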

How the data were processed

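Total RNA-seq libraries of 2 mouse hearts were given, 1 per mouse, with spike-ins and reduced ribosomal RNA per the labels. The authors deposited a gene table with expected counts, TPM, posterior mean TPM, posterior SD of the count and FPKM, a transcript table of the same kind, and a further transcript table with estimated counts and TPM, per the file headers. The first 2 were made from alignments and the third from reads, on mm10 with GENCODE M21, per the files' deposited descriptions. No source used here names the aligner or the quantifiers; the columns carry the names that RSEM and kallisto use. The labels give a spike-in profile for stranded libraries, but whether counting used strand is not stated. Of genes on the opposite strand, Gm17300 overlaps the Snora73 genes with an exon and had 1 count. Without exon overlap, Rps2 lies opposite Snora78, with 7339 counts in replicate 1 and 8808 in replicate 2. Likewise, Lbhd1 lies opposite Snora57 with 70.0 and 76.3 counts, and 1600010M07Rik opposite Snora23 with 0 and 1. The part of their reads in the snoRNA counts was not tested.

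Each of the 1558 candidate genes has 1 transcript. Depth is given in the report. Expected counts were rounded and scaled with TMM in edgeR 4.0.16 (R 4.3.3) over 15170 genes; ratios between mice used a prior count of 0.5 and a mean count of at least 50, with 2-fold as threshold. Scaling was tested on simulated counts. Intervals are exact binomial at 95%, conditional on the summed count, or Wilson for shares, and counts carry no molecular identifiers. Near copies were found with blastn 2.17.0 and pairwise identity with Biopython 1.88 by global alignment. Alternatives were DESeq2 1.42.0 size factors, totals, spike-ins, other thresholds, units and the third table.

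The members and lists were chosen with earlier results of these data known. By rule, the genes named are the 10 highest in TPM and in counts, the 3 highest of each class, every Rnu3 gene and those 2-fold apart. Those next to the threshold and those farthest apart between quantifiers were also taken. So were the hosts with most members, the extremes of fold over host, and core and extreme genes of the protein lists. Gm26448, Gm24119, Gm25788, Scarna3a, Snord118, Gas5, the copies of Gm22988 and other pairs in 1 host were named after their values were seen.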

Additional observations from a re-analysis of the deposited data

How the results depend on the processing

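No paired analysis was possible because there is only 1 group. Of 82 alternatives run, 50 kept their value. The limit was 1.5 times for counts of genes, the half-width of the counting interval for the median log2 ratio, and the SD of the mice otherwise. For sums and shares, each mouse alone always lies within that SD of the mean, so leaving 1 mouse out tests nothing there.

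The number of detected genes was 75. It was 45 at 10 TPM, 48 with at least 10 expected counts in both mice, 406 by posterior mean TPM and 2 with the second quantifier. Requiring only 1 mouse gave 83 to 94. The summed level of 3584 TPM became 2833 in FPKM, 402 TPM with the second quantifier and 3183 TPM without Gm26447. The share of counts of 0.0308% became 0.0508% of nuclear protein-coding counts and 0.0035% with the second quantifier.

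The median log2 ratio of -0.11 became -0.16 with total-count scaling and -0.28 with spike-ins. It became -0.016 with a minimum mean count of 10, 0.033 with none, 0.30 with the second quantifier (2 genes) and -0.055 with 1 gene per identical set. With each Rnu3 locus added up, an alternative chosen after seeing the data, it was 0.016. The 4 genes 2-fold apart became 0 at a minimum of 200 counts, 0 with the second quantifier, 1 with 1 gene per identical set and 0 with the loci added up.

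The rank correlation of level with length of 0.378 became 0.596 with counts. That with the host became -0.127 with counts and -0.0432 with the second quantifier. The second quantifier gave 72 of the 75 genes no counts, so its value rests on very few genes. In counts in place of TPM, the shares of the classes were 5.55% for Snord, 18.8% for Snora, 57.6% for scaRNA and 14.8% for genes with no family symbol. With the second quantifier the scaRNA genes held 100% and the other 4 classes 0%.

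Depth limits the 26 genes with a mean under 10 counts, whose order is not resolved. The cause of the changes was not tested, other than that the added-up loci and identical sets remove repeats of a single sequence.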
